A study of Caenorhabditis elegans with 12 samples.

Results

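Day 7 (D7) of adulthood was set against day 1 (D1) in sorted cells of the proximal somatic gonad (PSG) of Caenorhabditis elegans hermaphrodites that lacked the FOXO transcription factor DAF-16. The libraries were chosen by genotype and age: 6 of the 12 libraries of the series come from daf-16(0); daf-2(rf) animals, 3 from D1 and 3 from D7. The other 6 libraries come from daf-2(rf) animals of the same ages and served to ask whether the change with age depended on daf-16. All 4 groups carried daf-2(e1370), a reduction-of-function allele of the insulin/IGF-1 receptor gene, and a single-copy Pfos-1a::gfp transgene, and the double mutants also carried mu86, a null allele of daf-16. No group had a wild-type daf-2 gene, so the comparison describes age in animals with reduced insulin receptor function. Animals were untreated, grown in synchrony on OP50 bacteria and pooled in large numbers for each dissociation, and D7 animals were moved away from their eggs and larvae every day. Cells were released with Pronase and pipetting, sorted for GFP, and their polyadenylated RNA was amplified and sequenced. The sorted cells are those in which the fos-1a promoter drives GFP, together with any other cell or fragment that passed the gate.

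The proximal somatic gonad is made of the spermatheca, a contractile tube that stores sperm and in which oocytes are fertilised, and the uterus, which holds the eggs until they are laid. Its cells lie directly against maturing oocytes, sperm and embryos. When insulin signalling is low, DAF-16 enters the nucleus and turns on genes of stress resistance, metabolism and protein homeostasis, and in a daf-16 null animal this arm of the response is missing. Hermaphrodites make their own sperm before they switch to oocytes, and lay most of their eggs in early adulthood.

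The reads assigned to genes numbered 6183054 to 14831720 in the D1 libraries and 12239545 to 13907543 in the D7 libraries. The 10 genes with the most reads over the 6 libraries together took 64.8% to 73.6% of a library's reads on D1 and 52.2% to 61.5% on D7. Library sizes were therefore scaled with TMM normalization over the 6 libraries, and levels are given as TMM-scaled CPM, the usual unit of reads relative to library size, where 1 read stood for 0.0409 to 0.299 CPM. The TMM factors of replicates 1 to 3 were 0.542, 0.995 and 0.493 on D1 and 1.77, 1.51 and 1.41 on D7. Scaling thus raised the D1 levels, replicate 2 least, and lowered the D7 levels, and no fit without such scaling was run. D1 replicate 1 had the fewest reads and stood apart from the other libraries. It correlated with the other D1 libraries at r = 0.871 and 0.904 across 7541 genes, while the D7 libraries correlated with each other at 0.920 to 0.950, and counts or medians of many lists are given with and without it. Intervals and floors of counting cover counting error only, and the replicates differed by far more than counting error. Whether the 3 biological replicates of a group were raised and sorted on separate days is not given in the sources used here, so p-values measure the spread between these libraries.

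The sorted cells carried RNA of the labelled tissue. fos-1, whose promoter drove the GFP, stood at 115, 75.6 and 269 CPM in the 3 D1 libraries and at 242, 185 and 163 CPM on D7, groups that overlap (log2 fold change 0.36 ± 0.53 SE, edgeR adjusted p = 0.666). Of 13 marker genes of the spermatheca and uterus, 10 had enough reads to be tested and 0 were called by edgeR (1 in each direction at an unadjusted p under 0.05, and 1 in each direction with DESeq2, 0 without D1 replicate 1), and their summed level was 645 to 1011 CPM on D1 and 510 to 768 CPM on D7. fkh-6, a forkhead gene of the somatic gonad and one of the more abundant of these markers, measured 510, 302 and 516 CPM on D1 and 213, 186 and 155 CPM on D7, without overlap (log2 fold change -1.26 ± 0.45, adjusted p = 0.107). The deleted gene itself, daf-16, kept a low read count, 5.97, 3.90 and 14.5 CPM on D1 and 4.94, 5.30 and 8.04 CPM on D7. On the scale of all 12 libraries its mean was 10.3 CPM on D1 and 7.80 on D7, against 38.3 and 28.1 CPM in daf-2(rf). The table holds 1 count for the entire gene, and how many of these reads lie outside the deleted stretch was not tested.

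Of 46687 annotated genes, 7541 passed the filter of over 10 reads in every replicate of D1 or of D7, and 7408 of these code for proteins. With edgeR's quasi-likelihood test, 44 of the 7541 genes (0.583%) were called, which required an adjusted p under 0.05 and a log2 fold change of 1 or more in either direction. Of these, 15 (0.199%) were higher and 29 (0.385%) lower on D7. Below, called or not called refers to edgeR unless DESeq2 is named. The 29 genes that fell did so by 2.36 to 5.72 on the log2 scale, and the highest D1 mean among them was 26.6 CPM, so the called falls lie among genes of low to moderate abundance. The differences between ages reached well beyond the called genes: in 2925 genes (38.8%) the 2 ages did not overlap, every D7 library being above every D1 library in 1574 (20.9%) and below it in 1351 (17.9%). At an unadjusted p under 0.05, 1099 genes (14.6%) were higher and 1136 (15.1%) lower, and 631 genes had an adjusted p between 0.05 and 0.07, just outside the threshold. DESeq2, the tool the study used, called 1353 genes with the same thresholds, 672 (8.91%) higher and 681 (9.03%) lower, among them all 44 genes that edgeR called. The count of edgeR calls rested on single libraries: it was 0 without D1 replicate 1 or without D7 replicate 2 (1830 and 1754 genes at an unadjusted p under 0.05), 3 without D7 replicate 3, 9 without D1 replicate 3, 198 without D7 replicate 1 and 635 without D1 replicate 2. All 44 genes kept their direction in each of these fits, and DESeq2 without D1 replicate 1 called 781 genes, all 44 among them.

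**Figure D1:**
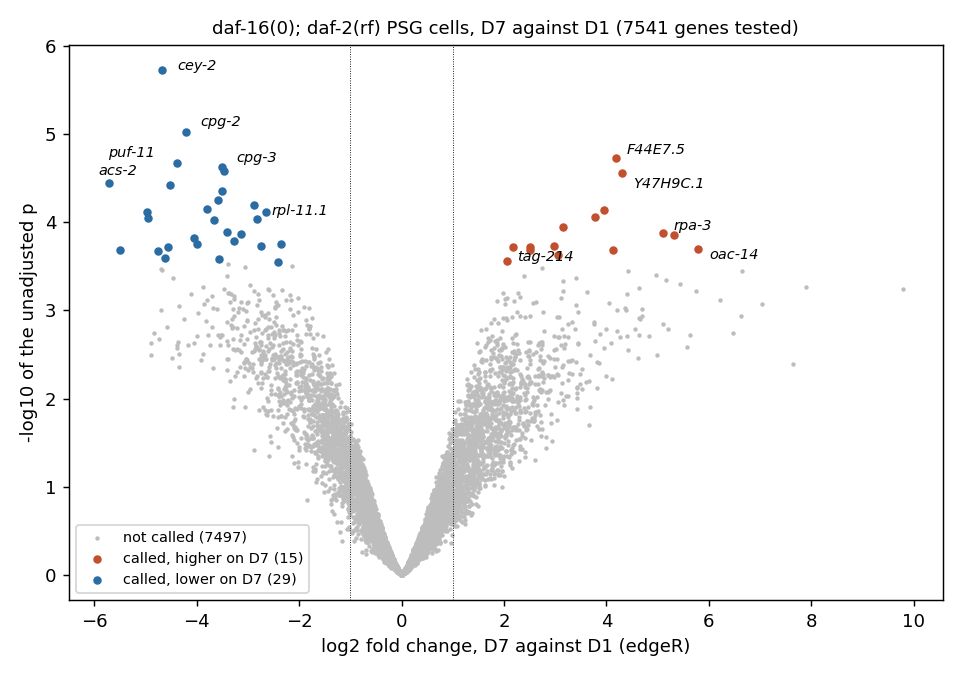
Log2 fold change of D7 against D1 (x axis) and -log10 of the unadjusted edgeR p (y axis) for the 7541 genes tested in the double mutant, with the 15 genes called higher on D7 in red, the 29 called lower in blue and the dotted lines at a log2 fold change of 1 and -1. The called genes sit at the top of 2 broad wings of genes that did not pass the adjusted threshold.

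The clearest fall was in genes of the oocyte and its eggshell. cey-2, which encodes a Y-box RNA-binding protein of the germ line and had the smallest adjusted p of all genes, measured 22.7, 24.1 and 12.44 CPM on D1 and 0.654, 0.954 and 0.694 CPM on D7. Every D1 library lay far above every D7 library, and the mean was 25.7-fold lower on D7 (log2 fold change -4.67 ± 0.47, adjusted p = 0.0141). Its paralogue cey-3 measured 12.8, 11.4 and 4.65 CPM on D1 and 0.531, 0.859 and 0.984 CPM on D7 (log2 fold change -3.59 ± 0.54, adjusted p = 0.0356).

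Genes of the eggshell were called lower together. cpg-2, a chondroitin proteoglycan of the eggshell encoded at chromosome III, positions 7102086 to 7103992 of WBcel235, measured 35.8, 22.5 and 12 CPM on D1 and 1.06, 1.29 and 1.39 CPM on D7. The D7 libraries agreed closely and the mean was 18.8-fold lower (log2 fold change -4.22 ± 0.51, adjusted p = 0.0299). Its relative cpg-1, at chromosome III, positions 4489357 to 4491396, was even in both ages, at 11.65, 12.17 and 10.9 CPM on D1 and 1.1, 1.29 and 2.31 CPM on D7 (log2 fold change -2.89 ± 0.44, adjusted p = 0.0356). cpg-3, a further chondroitin proteoglycan, dropped from 10.5, 18.1 and 21 to 1.1, 1.19 and 2.08 CPM (log2 fold change -3.51 ± 0.47, adjusted p = 0.0299). cbd-1, whose protein anchors the outermost eggshell layer, had 8.36, 24.3 and 12.299 CPM on D1 and 1.1, 2.2 and 1.85 CPM on D7 (log2 fold change -3.14 ± 0.52, adjusted p = 0.0407). These 4 are the called members of a list of 16 eggshell and yolk-uptake genes, of which 9 were tested and 8 lay without overlap below D1. The median log2 fold change of the 9 was -2.82, beside 0.08 over all genes tested, and DESeq2 called 7 of them lower. The most abundant members were perm-2 and perm-4, genes of the outer eggshell, which were not called: perm-2 measured 773, 160 and 822 CPM on D1 and 111, 21.8 and 116 CPM on D7 (log2 fold change -2.82 ± 0.80, adjusted p = 0.0671), and perm-4 measured 612, 240 and 965 CPM on D1 and 214.3, 48.4 and 233 CPM on D7 (log2 fold change -1.87 ± 0.71, adjusted p = 0.120). In both genes replicate 2 was the lowest of its age.

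Repressors and regulators of maternal mRNA moved the same way. Of 37 maternal RNA-binding and germ granule genes, 25 were tested, 3 were called lower, 16 lay without overlap below D1 and 0 without overlap above it, and DESeq2 called 14 lower. Their median log2 fold change was -1.65. puf-5, which encodes a PUF-family translational repressor of the oocyte, measured 6.27, 9.90 and 7.79 CPM on D1 and 1.31, 1.29 and 1.22 CPM on D7, where its 3 libraries were nearly equal (log2 fold change -2.66 ± 0.41, adjusted p = 0.0356). puf-11 measured 7.17, 6.82 and 2.87 CPM on D1 and 0.245, 0.191 and 0.347 CPM on D7 (adjusted p = 0.0299), and its relative puf-3 measured 6.57, 3.65 and 4.37 CPM against 0.245, 0.716 and 0.521 CPM (adjusted p = 0.0407). Both had a few reads in each D7 library. The sequences of puf-3 and puf-11, like those of cey-2 and cey-3, are similar, so reads may have been split between them in counting.

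As a marker list, germ line and oocyte genes were lower on D7 as a block. Of 19 such markers, 13 were tested, 3 were called lower (puf-5, cpg-1 and cpg-2), 11 lay without overlap below D1, and the fitted change of all 13 was below 0 with a median of -2.45. DESeq2 called 10 of the 13 lower. Their summed level was 145, 150 and 142 CPM in the D1 libraries and 28.5, 36.7 and 34.5 CPM on D7, with little spread within each age. The block did not rest on D1 replicate 1: without it the median was -2.1 and DESeq2 called all 13 lower. Of the 13, only lst-1 and sygl-1 are not also on the eggshell or maternal lists above. The block is therefore not separate evidence from those lists. oma-1, a zinc-finger gene of oocyte maturation, was the most abundant of those shown here and was not called, with 44.2, 25.6 and 58.5 CPM on D1 and 13.1, 11.5 and 13.9 CPM on D7 (log2 fold change -1.73 ± 0.42, adjusted p = 0.0601). pgl-1, which encodes a germ granule protein, was not called either, at 3.58, 4.95 and 4.1 CPM on D1 and 0.409, 1.53 and 0.231 CPM on D7 (adjusted p = 0.0613). In sorted bulk samples, fewer cells or fragments of a type and less RNA per cell cannot be told apart, and whether germ line material in the sort had a part in these falls was not tested.

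Sperm-related genes were at low levels at both ages. msp-19 and msp-57, which encode major sperm proteins, were called lower: msp-19 measured 6.57, 4.95 and 2.19 CPM on D1 and 0.245, 0 and 0 CPM on D7 (adjusted p = 0.0407), and msp-57 measured 3.88, 3.98 and 1.91 CPM against 0.163, 0 and 0.116 CPM (adjusted p = 0.0356). The summed level of all 30 annotated msp genes was 41.5, 55.3 and 24.19 CPM on D1 and 3.23, 0.143 and 1.04 CPM on D7, without overlap. Members of this family are near copies of each other, so single msp values are uncertain. None of 9 other sperm markers had enough reads to be tested, and their summed level was 1.19 to 3.25 CPM on D1 and 0.579 to 1.68 CPM on D7. Early embryo markers were likewise not tested, at 0.273 to 1.49 CPM summed on D1 and 0.204 to 0.907 CPM on D7, with med-1 at 0 reads in all 6 libraries.

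The other called falls came from collagens, fat metabolism and single genes. acs-2, a mitochondrial acyl-CoA synthetase gene of fatty acid breakdown at chromosome V, positions 15567392 to 15569889, had the largest called fall, from 29.9, 5.11 and 44.7 CPM on D1 to 0.572, 0.334 and 0.579 CPM on D7 (log2 fold change -5.72 ± 0.81, adjusted p = 0.0321). D1 replicate 2 was the lowest D1 library and still lay well above all of D7. sip-1, which encodes a small heat shock protein, measured 26.3, 15.8 and 12.8 CPM on D1 and 0.327, 0.525 and 1.56 CPM on D7 (log2 fold change -4.52 ± 0.64, adjusted p = 0.0321). Of 39 cuticle-type collagen genes tested, 4 were called lower, 22 lay without overlap below D1 and 0 above it, the median log2 fold change was -3.02 and DESeq2 called 24 lower. Without D1 replicate 1 the median was -2.36 and DESeq2 called 18 lower. col-122 measured 34.3, 31.6 and 6.42 CPM on D1 and 2.00, 0.430 and 0.405 CPM on D7 (log2 fold change -4.63 ± 0.83, adjusted p = 0.0467). col-19, an adult cuticle collagen gene made by the hypodermis, measured 17.6, 21.9 and 4.51 CPM on D1 and 1.43, 0.430 and 0.868 CPM on D7 (log2 fold change -3.99 ± 0.69, adjusted p = 0.0407). In both collagens D1 replicate 3 was the lowest D1 library. col-107 (log2 fold change -4.76 ± 0.84) and col-34 (-3.56 ± 0.64) were the other called collagens, while col-140, more abundant than any of them at 130, 122.4 and 29.4 CPM on D1 and 13.9, 1.48 and 4.57 CPM on D7, was not called (adjusted p = 0.0599). Of 9 hypodermis markers, col-19 alone was called, 3 were tested, and their summed level was 9.43 to 35.9 CPM on D1 and 7.76 to 10.2 CPM on D7.

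The remaining genes called lower were daf-6, a patched-related gene known from glial channel formation (16.7, 8.03 and 12.57 CPM against 2.66, 1.29 and 1.5 CPM), cah-4, a carbonic anhydrase gene (6.87, 10.5 and 8.34 CPM against 1.19, 0.430 and 0.636 CPM), and gfat-2, listed as F22B3.4, a gene of the hexosamine pathway (3.88, 9.41 and 4.92 CPM against 0.654, 0.239 and 0.405 CPM). Their adjusted p were 0.0407, 0.0336 and 0.0356, and in each of them the lowest D1 library was more than all D7 libraries. rpl-11.1, the only ribosomal protein gene called, is described with its family below. The other 8 genes called lower, with adjusted p between 0.0299 and 0.0484, were ram-2, sss-1, W05F2.3, F53F4.13 (spig-9 in RefSeq), Y18D10A.11, F25D7.4 (maph-1.2), C06A8.3 (srlf-1) and Y51F10.2 (grif-1).

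**Figure D2:**
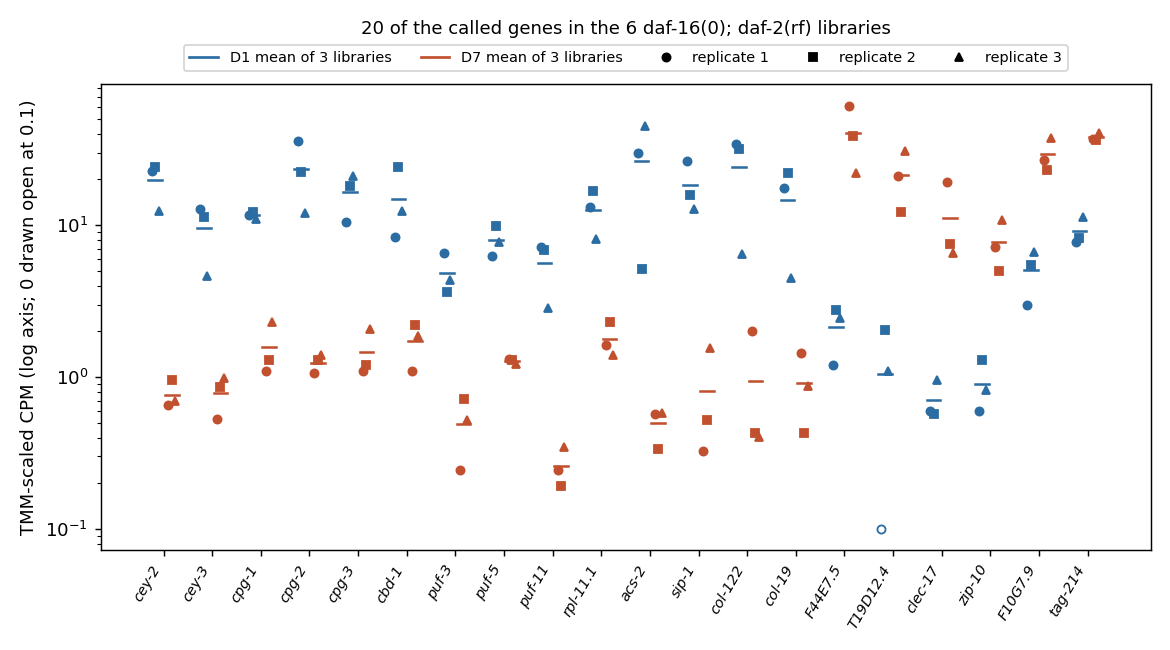
TMM-scaled CPM (log axis, a count of 0 drawn open at 0.1) of 20 of the 44 called genes in each of the 6 daf-16(0); daf-2(rf) libraries, D1 in blue and D7 in red, with lines at the mean of 3 libraries and a symbol for each replicate number. In the 14 genes on the left the D1 libraries lie above the D7 libraries, in the 6 on the right below them, and in no gene do the ages overlap.

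The 15 genes that rose on D7 did not fall into a single group. The most abundant on D7 was F44E7.5, an uncharacterised gene at chromosome V, positions 5779327 to 5780922, which measured 1.19, 2.76 and 2.46 CPM on D1 and 61.3, 38.5 and 22 CPM on D7 (19-fold, log2 fold change 4.18 ± 0.55, adjusted p = 0.0299). tag-214, named rbpl-1 in RefSeq, had the smallest of the 15 rises and even replicates, at 7.76, 8.20 and 11.3 CPM on D1 and 37, 36.3 and 40.2 CPM on D7 (4.16-fold, log2 fold change 2.05 ± 0.37, adjusted p = 0.0484). F10G7.9, at chromosome II, positions 4703254 to 4706488, measured 2.99, 5.44 and 6.70 CPM on D1 and 26.8, 23.1 and 37.7 CPM on D7 (log2 fold change 2.50 ± 0.44, adjusted p = 0.0407). In these 3 genes the lowest D7 library was above the highest D1 library by a wide margin. T19D12.4 measured 0, 2.03 and 1.09 CPM on D1 and 21.1, 12.26 and 30.6 CPM on D7 (log2 fold change 4.12 ± 0.72, adjusted p = 0.0407).

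Among called rises of known protein type, zip-10, a bZIP transcription factor gene, went from 0.597, 1.30 and 0.820 CPM to 7.23, 5.01 and 10.8 CPM (log2 fold change 2.98 ± 0.52, adjusted p = 0.0407). clec-17, a C-type lectin gene, went from 0.597, 0.568 and 0.957 CPM to 19.2, 7.49 and 6.54 CPM (log2 fold change 3.95 ± 0.61, adjusted p = 0.0356). ZK1098.1, named prp-40 in RefSeq after a pre-mRNA splicing factor, went from 2.99, 3.41 and 3.42 CPM to 18, 13.7 and 13.2 CPM (log2 fold change 2.18 ± 0.38, adjusted p = 0.0407). The D1 libraries of all 3 genes were close together. nep-26, a gene of the neprilysin peptidase family, measured 0.896, 0.893 and 0.820 CPM on D1 and 4.70, 5.30 and 12 CPM on D7 (log2 fold change 3.06 ± 0.55, adjusted p = 0.0444). ttm-4, named ifo-1 in RefSeq after its part in ordering intermediate filaments of the intestine, measured 0.597, 0.568 and 0.273 CPM on D1 and 8.54, 3.48 and 7.70 CPM on D7 (log2 fold change 3.77 ± 0.59, adjusted p = 0.0356). Y47H9C.1, rpa-3, F47G9.4 and M02D8.3 were the other called rises with more than a read or so on D1, with log2 fold changes of 4.30 ± 0.59, 5.09 ± 0.84, 3.15 ± 0.51 and 2.50 ± 0.43. oac-14, which encodes an acyltransferase homologue, and dod-20 had 1 read in the 3 D1 libraries together, and no fold is given for them. On D7 oac-14 stood at 4.94, 1.38 and 2.08 CPM (adjusted p = 0.0407) and dod-20 at 2.04, 1.29 and 2.78 CPM (adjusted p = 0.0407). dod-20 carries a name from genes found downstream of DAF-16 in whole worms, and it was the 1 gene called higher of the 9 tested on a list of 13 genes known to fall with DAF-16 there.

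Because only 8 called genes reached a mean of 10 CPM, genes with the next smallest p at that level and without overlap were also examined. None of these was called by edgeR. In some of them the D7 libraries were close to each other. tir-1, which encodes a TIR-domain adaptor of innate immunity, measured 15.5, 15.6 and 22.8 CPM on D1 and 61.5, 58.4 and 76.5 CPM on D7 (log2 fold change 1.86 ± 0.39, adjusted p = 0.0579). cdh-4, a Fat-like cadherin gene, measured 3.28, 11.7 and 6.56 CPM on D1 and 59.2, 25.5 and 45.7 CPM on D7 (log2 fold change 2.56 ± 0.54, adjusted p = 0.0579). K07E3.1 (2.39, 5.19 and 8.61 CPM against 29.5, 23.8 and 29.5 CPM) and C27H5.2 (0.896, 6.25 and 6.42 CPM against 30.9, 41.4 and 53.7 CPM) had the same adjusted p of 0.0579. DESeq2 called tir-1, cdh-4, K07E3.1 and C27H5.2 higher, with adjusted p of 1.92e-05 to 0.000292.

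Another set differed between the D7 libraries themselves. T26F2.3 (eol-1 in RefSeq) measured 2.00, 57.0 and 50.6 CPM in the 3 D7 libraries, ZC116.3 (cubn-1, after the endocytic receptor cubilin) measured 1.35, 20.3 and 124 CPM, and the lectin gene clec-145 measured 3.39, 154 and 245 CPM, while their D1 libraries lay between 0 and 2.69 CPM. DESeq2 called all 3 higher, with adjusted p of 4.87e-07 to 0.000956. All 3 were low in D7 replicate 1 and high in D7 replicates 2 and 3. cup-4, a gene of coelomocytes, the scavenger cells of the body cavity, had the same pattern at 3.11, 32 and 106 CPM on D7 and 0.299, 1.22 and 0.820 CPM on D1. lgc-26, also a coelomocyte marker, measured 1.19, 1.14 and 0.820 CPM on D1 and 1.19, 24.9 and 64.0 CPM on D7. The summed level of the 3 coelomocyte markers was 1.49, 2.68 and 1.91 CPM on D1 and 4.70, 66.9 and 196 CPM on D7; 2 were tested, 0 were called by edgeR (2 at an unadjusted p under 0.05) and 2 were called higher by DESeq2. Whether coelomocytes in the sort had a part in the values of eol-1, cubn-1 and clec-145 was not tested.

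Genes with the next smallest p on the lower side were also not called by edgeR. E02H9.7 measured 2358, 742 and 1585 CPM on D1 and 217, 107 and 123 CPM on D7 (log2 fold change -3.39 ± 0.62, adjusted p = 0.0501). sodh-1, an alcohol dehydrogenase gene named adh-1 in RefSeq, measured 131, 38.3 and 312 CPM on D1 and 8.30, 1.86 and 8.33 CPM on D7 (log2 fold change -4.70 ± 0.88, adjusted p = 0.0515). cpl-1, a cathepsin L gene, measured 54.3, 18.5 and 21.3 CPM on D1 and 5.48, 2.00 and 5.27 CPM on D7 (log2 fold change -2.87 ± 0.58, adjusted p = 0.0579). All 3 lay without overlap below D1, and DESeq2 called all 3 lower, with adjusted p of 8.71e-07 to 0.000305. C35B1.5, pde-6 (a phosphodiesterase gene), F54D7.7 (rpl-41.2), rpl-41 (rpl-36A) and cyc-2.1 (a cytochrome c gene) completed this set, with edgeR adjusted p of 0.0557 to 0.0579. DESeq2 called C35B1.5, pde-6, rpl-41 and cyc-2.1 lower and gave no adjusted p for F54D7.7.

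The most abundant RNAs of the sorted cells were the same at both ages. By the mean of the deposited FPKM, which divide by gene length, the top 5 genes on D1 and on D7 were D1054.11 (ule-3), Y62H9A.6 (ule-5), Y62H9A.5, D1054.10 and ZK813.3, with the third and the fourth changing places. RefSeq names 2 of them after uterine lumen expression. D1054.11 measured 353998 ± 158910 FPKM on D1 and 153048 ± 37526 FPKM on D7 (SD, n = 3), and Y62H9A.6 measured 344178 ± 138660 and 99382 ± 32597 FPKM. All 5 had lower means on D7. By edgeR 0 were called, while DESeq2 called all 5 lower, with adjusted p of 0.000532 to 0.0419. The FPKM and the CPM were scaled by factors that differed between the ages, and levels without such scaling were not compared. In the counts, D1054.11 measured 282459, 174734 and 444024 CPM on D1 and 93988, 122799 and 151766 CPM on D7 (log2 fold change -1.29 ± 0.80, adjusted p = 0.301). Y62H9A.5 had the largest fitted difference of the 5, at 246510, 71093 and 172264 CPM on D1 and 23060, 35475 and 33186 CPM on D7 (log2 fold change -2.42 ± 0.81, adjusted p = 0.0909). For all 5 the spread among the D1 libraries was wide, and in each of the 5 D1 replicate 2 was the lowest D1 library.

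Cytosolic ribosomal protein genes, which encode the protein part of the ribosome, lay lower on D7 as a group. Of 82 such genes, 80 were tested, the fitted change of all 80 was below 0, from -1.41 in rpl-24.2 to -4.58 in rps-21, and 79 lay without overlap below D1, the exception being rpl-24.2. Only 1, rpl-11.1, was called by edgeR, while all 80 had an unadjusted p under 0.05 and DESeq2 called 65 lower. rpl-11.1 measured 13.1, 16.7 and 8.06 CPM on D1 and 1.63, 2.29 and 1.39 CPM on D7 (log2 fold change -2.83 ± 0.45, adjusted p = 0.0356). Its paralogue rpl-11.2 encodes nearly the same protein, so its reads may have been split in counting.

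The size of this shift depended on 1 library, and it was not tested without the TMM scaling, which raised D1 and lowered D7 levels. The summed level of the 82 genes was 95247, 25769 and 25545 CPM in the D1 libraries and 10914, 9469 and 8740 CPM on D7, so that D1 replicate 1 was far above the other D1 libraries. rps-21, at the extreme of the group, measured 119.4, 7.30 and 8.75 CPM on D1 and 1.47, 2.24 and 1.85 CPM on D7 (adjusted p = 0.0601). Without D1 replicate 1 the median log2 fold change of the group was -1.59 instead of -2.85, and DESeq2 then called 75 of the genes lower. Translation elongation and initiation factors and tRNA synthetases, which work with the ribosome, did not share the shift to this extent. Of 68 tested, 0 were called by edgeR (2 higher and 15 lower at an unadjusted p under 0.05), DESeq2 called 2 higher and 9 lower (0 and 4 without D1 replicate 1), and the median was -0.24. eef-1A.1, the abundant elongation factor gene, measured 10682, 4410 and 3624 CPM on D1 and 2202, 2447 and 1926 CPM on D7 (log2 fold change -1.51 ± 0.61, adjusted p = 0.139), and eef-1G measured 4705, 5650 and 5655 CPM against 3877, 2790 and 3665 CPM (log2 fold change -0.63 ± 0.52, adjusted p = 0.425). Mitochondrial ribosomal proteins had a median of -0.34 over 38 tested genes, and genes of the nucleolus and ribosome assembly -0.14 over 21.

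Nuclear genes of the mitochondrial respiratory chain followed the same direction with smaller differences. Of 37 tested, 0 were called by edgeR, 33 had an unadjusted p under 0.05 on the lower side and 35 lay without overlap below D1. Their median was -1.64, DESeq2 called 22 lower, and without D1 replicate 1 the median was -0.98 and DESeq2 called 10. atp-2, the beta subunit of ATP synthase, measured 426, 397 and 316 CPM on D1 and 253, 165 and 140 CPM on D7 (log2 fold change -1.03 ± 0.45, adjusted p = 0.158). The alpha subunit gene, listed as H28O16.1, measured 1001, 1299 and 1211 CPM on D1 and 957, 456 and 716 CPM on D7 (log2 fold change -0.72 ± 0.49, adjusted p = 0.340). A further set with a median below 0 was the proteasome, the protease that degrades ubiquitin-tagged proteins, but the share called was not above that of all genes. The fitted change of all 32 tested subunits was below 0 with a median of -1.02, 12 lay without overlap below D1 and 0 were called by edgeR (15 lower at an unadjusted p under 0.05). DESeq2 called 3 lower, a share close to the 9.03% over all genes, and without D1 replicate 1 it called 1, beside 416 of 7684 genes. The most abundant proteasome genes, rpn-1 (72.6, 57.2 and 38.3 CPM against 50.7, 41.3 and 33 CPM) and rpn-2 (75, 50 and 54 CPM against 47.4, 45.8 and 38 CPM), had log2 fold changes of -0.42 ± 0.41 and -0.45 ± 0.38. Without D1 replicate 1 the proteasome median was -0.43.

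Cytosolic chaperones had 1 called member, sip-1, and the heat-inducible genes did not move as 1 block. Of 22 tested, 18 had a fitted change below 0 with a median of -0.73, and DESeq2 called 7 lower and 0 higher. hsp-16.2, a small heat shock protein gene, measured 270, 766 and 401 CPM on D1 and 166, 159 and 101 CPM on D7 (log2 fold change -1.75 ± 0.53, adjusted p = 0.0757), and its neighbour hsp-16.41 measured 408, 2576 and 1225 CPM against 560, 439 and 493 CPM, which overlap (adjusted p = 0.162). hsp-70 lay on the other side, at 117, 783 and 732 CPM on D1 and 913, 1090 and 1593 CPM on D7 (log2 fold change 1.14 ± 0.69, adjusted p = 0.287). hsf-1, the gene of the heat shock transcription factor, was at like levels, 7.76, 8.6 and 9.57 CPM on D1 and 6.33, 7.83 and 6.60 CPM on D7 (log2 fold change -0.32 ± 0.35, adjusted p = 0.554). Endoplasmic reticulum folding genes centred on 0 (median 0.00 over 23 tested, 0 called by edgeR, 2 lower at an unadjusted p under 0.05, 1 lower with DESeq2), with xbp-1 at 2232, 1898 and 2773 CPM on D1 and 1646, 1457 and 1074 CPM on D7, and pdi-2 at 3167, 4727 and 2029 CPM against 2538, 994 and 2380 CPM.

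**Figure D3:**
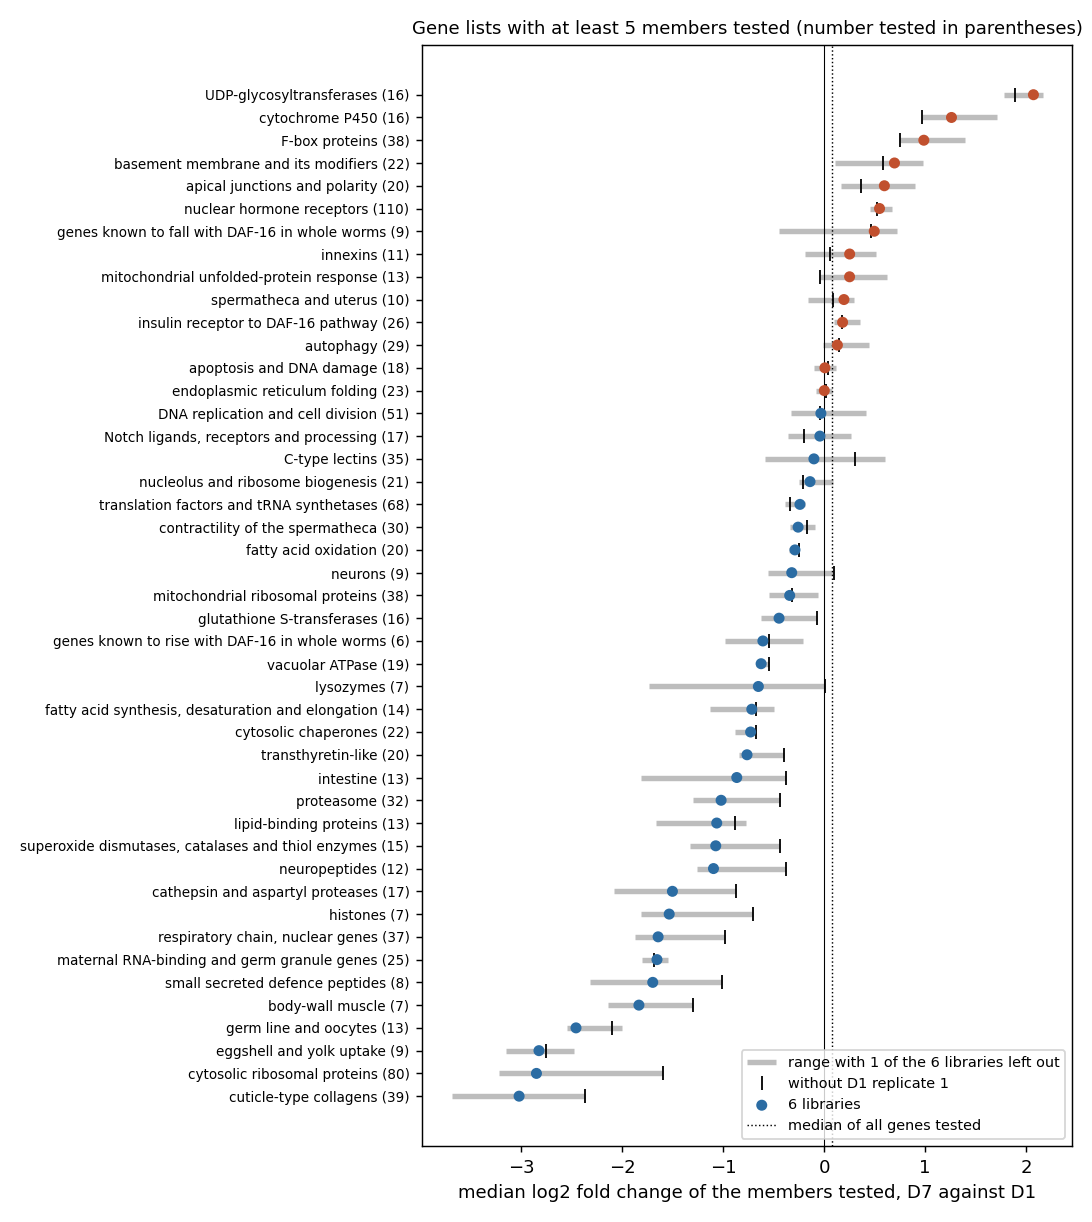
Median log2 fold change of D7 against D1 (x axis) over the members tested of each gene list with at least 5 tested, medians below 0 in blue and above 0 in red, with grey bars for the range when 1 of the 6 libraries is left out, ticks for the value without D1 replicate 1, and a dotted line at the median of all genes tested (0.08). Cuticle-type collagens (-3.02), ribosomal proteins (-2.85) and eggshell genes (-2.82) lie at the low end and UDP-glycosyltransferases (2.07) at the high end, and the tick for ribosomal proteins lies at -1.59.

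Detoxification families differed in direction, 2 with medians above that of all genes and the glutathione S-transferases below it. Glutathione S-transferases, which attach glutathione to reactive compounds, had 16 tested of 49, 12 with a fitted change below 0 and a median of -0.45, which was -0.07 without D1 replicate 1. By edgeR 0 were called (0 higher and 3 lower at an unadjusted p under 0.05), and DESeq2 called 0. UDP-glycosyltransferases, enzymes that attach sugars to lipophilic compounds and drugs, had 16 members tested of 67, 15 with a fitted change above 0 and a median of 2.07. By edgeR 0 were called (10 higher at an unadjusted p under 0.05), 8 lay without overlap above D1, and DESeq2 called 8 higher. The summed level of the family was 6.27, 24.4 and 22.8 CPM on D1 and 54.4, 38.9 and 93.3 CPM on D7, without overlap, with D1 replicate 1 the lowest. Without that library the median was 1.89 and DESeq2 called 4. ugt-29 measured 0, 0.649 and 0.410 CPM on D1 and 1.47, 5.97 and 13.9 CPM on D7 (log2 fold change 3.99 ± 0.93, adjusted p = 0.0601), and ugt-24 measured 0.299, 2.19 and 2.46 CPM against 1.63, 3.10 and 13.3 CPM, which overlap.

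Cytochrome P450 genes, which encode oxidising enzymes of drug and lipid metabolism, had a median of 1.26 over 16 tested of 76. By edgeR 0 were called (7 higher at an unadjusted p under 0.05), 7 lay without overlap above D1 and DESeq2 called 7 higher, and 2 without D1 replicate 1. cyp-33C8 measured 6.87, 4.46 and 6.56 CPM on D1 and 8.66, 17.8 and 81.1 CPM on D7 (log2 fold change 2.60 ± 0.76, adjusted p = 0.0718), with D7 replicate 3 well above the rest. The more abundant cyp-34A8 measured 189, 85.1 and 177 CPM against 111, 129 and 247 CPM, with no direction that held when single libraries were left out. Nuclear hormone receptors, the ligand-gated transcription factors that are greatly expanded in worms, had 110 members tested and a median of 0.55. Of these, 34 lay without overlap above D1 and 5 below, beside 20.9% and 17.9% of all genes. By edgeR 0 were called (21 higher and 3 lower at an unadjusted p under 0.05). DESeq2 called 15 higher, beside 8.91% of all genes. Without D1 replicate 1 it called 3, a share not above that of all genes (365 of 7684). F-box genes, which encode substrate adaptors of ubiquitin ligases, had 38 tested, 17 without overlap above D1 and 0 below, a median of 0.99, 0 called by edgeR (12 higher at an unadjusted p under 0.05) and 6 called higher by DESeq2, or 3 without that library. fbxc-54 (7.17, 16.8 and 26.8 CPM against 16.8, 25.2 and 24.6 CPM) and fbxa-90 (6.57, 5.27 and 8.75 CPM against 6.50, 7.30 and 9.61 CPM), the most abundant members, overlapped between ages.

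Genes that give the spermatheca its shape and contraction had members on both sides. Of 30 contractility genes tested, 8 lay without overlap above D1 and 11 below, 0 were called by edgeR (6 higher and 9 lower at an unadjusted p under 0.05), DESeq2 called 5 higher and 4 lower (1 and 2 without D1 replicate 1), and the median was -0.26. act-4, an actin gene, measured 31177, 35632 and 56632 CPM on D1 and 26090, 17379 and 15445 CPM on D7 (log2 fold change -1.07 ± 0.65, adjusted p = 0.293). nmy-1, the non-muscle myosin heavy chain gene, measured 1898, 1362 and 2495 CPM on D1 and 5592, 2940 and 3448 CPM on D7, above D1 without overlap (log2 fold change 1.06 ± 0.55, adjusted p = 0.223). Apical junction and polarity genes had 20 tested, 15 with a fitted change above 0 and a median of 0.60, with 0 called by edgeR (2 higher and 1 lower at an unadjusted p under 0.05) and 1 called higher by DESeq2. Without D1 replicate 1 DESeq2 called 0 and the median was 0.37. ajm-1, a junction gene, measured 193, 163 and 237 CPM on D1 and 785, 292 and 177 CPM on D7, and vab-10, a spectraplakin gene, measured 71.7, 75.6 and 57.3 CPM against 160, 106 and 131 CPM (log2 fold change 0.96 ± 0.40, adjusted p = 0.148). Basement membrane genes had a median of 0.70 over 22 tested. Muscle genes lay on the lower side: of 7 body-wall muscle markers tested 5 lay without overlap below D1, with a median of -1.83, 0 called by edgeR (5 lower at an unadjusted p under 0.05) and 4 by DESeq2. Without D1 replicate 1 the median was -1.30 and DESeq2 called 3 lower. lev-11, the tropomyosin gene, made up most of the sum of these markers, at 10270, 5515 and 14838 CPM on D1 and 3406, 2775 and 2394 CPM on D7 (log2 fold change -1.84 ± 0.61, adjusted p = 0.0906), and unc-87 measured 266, 68.5 and 98.8 CPM against 43.4, 50.7 and 27.4 CPM. hlh-1, which defines body-wall muscle, had at most 0.0811 CPM on D1 and 0.810 CPM on D7, and myo-3 at most 6.74 and 14.8 CPM.

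C-type lectins, secreted or surface proteins with sugar-binding domains, had 1 called member. Of 35 tested, clec-17 was called higher, 11 lay without overlap above D1 and 5 below, and DESeq2 called 11 higher and 3 lower, on the lower side a share close to that of all genes. The median was -0.10 and turned sign when single libraries were left out. clec-190 measured 1814, 2183 and 4915 CPM on D7 and 690, 137 and 158 CPM on D1 (9.05-fold, log2 fold change 3.18 ± 0.80, adjusted p = 0.0606). Each D7 library lay above each D1 library. Transthyretin-like genes, whose products are secreted, had a median of -0.76 over 20 tested, 0 called by edgeR (3 in each direction at an unadjusted p under 0.05) and 3 called in each direction by DESeq2. Without D1 replicate 1 DESeq2 called 2 higher and 0 lower and the median was -0.40. ttr-15 measured 4282, 5482 and 16333 CPM on D1 and 2771, 4031 and 4653 CPM on D7, and ttr-2 measured 8038, 674 and 4110 CPM against 620, 1205 and 750 CPM, and both overlap between ages.

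Among lists of metabolism and the lysosome, medians lay below 0 and edgeR called 0 genes in each. Vacuolar ATPase subunits had a median of -0.62 (7 of 19 lower at an unadjusted p under 0.05, 5 called lower by DESeq2), with vha-2 at 296, 143 and 173 CPM on D1 and 70.8, 71.3 and 43.5 CPM on D7 (log2 fold change -1.72 ± 0.47, adjusted p = 0.0636) and vha-13 at 167, 90.2 and 93.1 CPM against 87.7, 88.4 and 69.0 CPM. Cathepsin and aspartyl proteases had a median of -1.50 (2 higher and 9 lower of 17 at an unadjusted p under 0.05, 2 higher and 4 lower with DESeq2). In asp-1, at 585, 88.6 and 67.8 CPM on D1 and 96.5, 18.6 and 12.09 CPM on D7, and in asp-3, at 381, 91.8 and 99.9 CPM against 189, 49.4 and 46.1 CPM, the first replicate of each age was the highest. Fatty acid synthesis and desaturation genes had a median of -0.72 (5 of 14 lower at an unadjusted p under 0.05, 5 with DESeq2), led in abundance by fat-1, an omega-3 desaturase gene, at 190, 71.2 and 154 CPM on D1 and 35.2, 45.5 and 46.2 CPM on D7 (log2 fold change -1.71 ± 0.47, adjusted p = 0.0648) and pod-2, an acetyl-CoA carboxylase gene, at 113, 50.9 and 78.2 CPM against 40.7, 22.6 and 30 CPM. Fatty acid oxidation genes, a list that does not hold acs-2, had a median of -0.29 (1 higher and 7 lower of 20, and 1 higher and 5 lower with DESeq2), with acdh-9 at 111.98, 48.9 and 72.2 CPM on D1 and 50.4, 28.1 and 24.5 CPM on D7 and acdh-3 at 72.9, 24.7 and 26.8 CPM against 19.6, 19.6 and 14.7 CPM. Superoxide dismutases, catalases and thiol enzymes had a median of -1.07 (7 of 15 lower, 5 with DESeq2). Of these, prdx-2, a peroxiredoxin gene, measured 176, 47.2 and 52.7 CPM on D1 and 20.8, 22.3 and 15 CPM on D7 (log2 fold change -2.24 ± 0.57, adjusted p = 0.0613), and skn-1, the Nrf-type transcription factor gene, measured 13.1, 14 and 26.4 CPM against 25, 23.1 and 27.5 CPM. Histone genes had a median of -1.53 over 7 tested (5 lower at an unadjusted p under 0.05, 3 with DESeq2), with his-37 at 328, 87.9 and 168 CPM against 44.5, 37.5 and 24.6 CPM and his-41 at 202, 154 and 123 CPM against 95.2, 68.5 and 76.7 CPM. Histone genes exist in near-identical copies and most of their mRNA carries no poly(A) tail, so these values are uncertain. Without D1 replicate 1 the medians were -0.87 for the proteases, -0.44 for the dismutase list and -0.70 for histones. Without it DESeq2 called 2 vacuolar ATPase, 2 fatty acid oxidation and 2 dismutase-list genes lower and 0 of these higher, 1 protease gene higher and 2 lower, and 1 histone gene lower.

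Markers of other tissues were read in the same way. Intestine markers had 13 tested of 16, a median of -0.86, 0 called by edgeR (2 in each direction at an unadjusted p under 0.05) and 1 in each direction by DESeq2. Without D1 replicate 1 DESeq2 called 1 lower and 0 higher and the median was -0.37. Their summed level, 1735, 440 and 1219 CPM on D1 and 1002, 106 and 343 CPM on D7, was lowest in replicate 2 of both ages and overlapped between ages. vit-2, a yolk protein gene of the intestine, measured 557, 129 and 692 CPM on D1 and 374, 24.1 and 129 CPM on D7 (log2 fold change -1.39 ± 0.90, adjusted p = 0.321). Of the 13 tested, 3 had a fitted change above 0 and 10 below, and 2 lay without overlap above D1 and 1 below. The 2 above were ifb-2, at 3.57 to 8.06 CPM on D1 and 8.91 to 29.7 CPM on D7, and pept-1, at 0.299 to 1.37 and 1.81 to 8.05 CPM. Neuron markers had a summed level of 144 to 517 CPM on D1 and 101 to 195 CPM on D7, and gonadal sheath markers of 20.6 to 42.1 CPM and 17.8 to 44.8 CPM. The part of these tissues in the results was not tested.

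**Figure D4:**
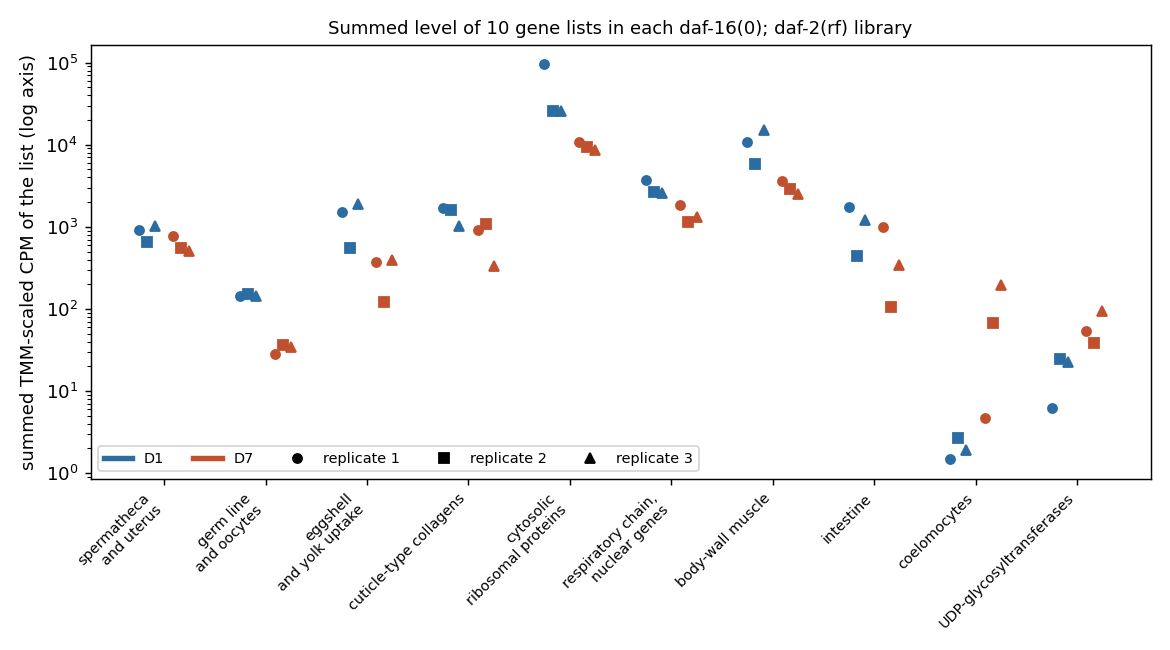
Summed TMM-scaled CPM (log axis) of 10 gene lists in each of the 6 daf-16(0); daf-2(rf) libraries, D1 in blue and D7 in red, with a symbol for each replicate number. Germ line and oocyte genes form tight and separate groups (142 to 150 CPM on D1, 28.5 to 36.7 CPM on D7), ribosomal proteins are highest in D1 replicate 1, and coelomocyte markers spread from 4.70 to 196 CPM within D7.

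In the insulin pathway itself the median change was small. Of 26 tested genes between the insulin receptor and DAF-16, 0 were called by edgeR (3 in each direction at an unadjusted p under 0.05). The median log2 fold change was 0.18, with a range of -1.60 to 3.19. Without overlap, 8 lay above D1 and 2 below, beside 20.9% and 17.9% of all genes. DESeq2 called 3 higher, beside 8.91% of all genes, and 2 without D1 replicate 1. daf-2 measured 19.7, 7.87 and 21.9 CPM on D1 and 15.8, 18.1 and 17.6 CPM on D7 (log2 fold change 0.07 ± 0.44, adjusted p = 0.931). Notch ligands, receptors and processing genes, a pathway through which gonad cells signal to germ cells, had 17 tested of 29, 0 called by edgeR (1 higher and 5 lower at an unadjusted p under 0.05), 2 called lower by DESeq2 (0 without D1 replicate 1) and a median of -0.04 (-0.20 without it). dos-3, a gene for a Notch ligand of the non-canonical kind, had 0 reads in all 3 D1 libraries, where a floor of 3 reads stands for 0.243 to 0.896 CPM, and 6, 7 and 11 reads on D7 (0.245, 0.334 and 0.636 CPM). It did not have enough reads to be tested with age here, and its mean on the scale of all 12 libraries was 0.519 CPM on D7, against 0.962 CPM on D1 and 10.3 CPM on D7 in daf-2(rf).

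Whether the change with age differed from that of daf-2(rf) was tested as an interaction of genotype and age over all 12 libraries. Of 8096 genes, 57 (0.704%) passed at an adjusted p under 0.05, 33 with the change in daf-16(0); daf-2(rf) above that in daf-2(rf) and 24 below it. In 56 of the 57, the means moved in opposite directions in the 2 genotypes, and F47G9.4 was the exception, while sod-5 was nearly level without daf-16. That count takes only the sign of the means, however small the move, and a test of the difference favours opposite signs. In some of these genes edgeR did not distinguish the change within daf-2(rf) from 0. Examples are cey-2 (log2 fold change 0.56, adjusted p = 0.594) and F10G7.9 (-0.46, adjusted p = 0.414). In sod-5 it did (7.16, adjusted p = 0.0259). DESeq2 passed 422 genes (5.21%) above and 420 (5.19%) below, including all 57. The edgeR count was 0 in 7 of the 12 fits that left out 1 library (1401 to 2017 genes at an unadjusted p under 0.05), and between 1 and 130 in the other 5: 1 without D7 daf-2(rf) replicate 2, 20 without D7 replicate 2, 40 without D7 daf-2(rf) replicate 1, 48 without D1 replicate 3 and 130 without D1 replicate 2 of the double mutant. The 57 genes kept their sign in all 12. Across the 6782 genes tested in both genotypes the log2 fold changes with age correlated weakly (Pearson's r = 0.187, Spearman's rho = 0.136), a description across genes, which are not independent.

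Of the 44 genes called with age, 8 also passed this test: cey-2, cey-3, puf-3 and rpl-11.1 below, and rpa-3, F47G9.4, F10G7.9 and M02D8.3 above. On the scale of all 12 libraries, cey-2 averaged 24.9 CPM on D1 and 0.984 CPM on D7 without daf-16, and 2.01 and 2.96 CPM in daf-2(rf) (difference of log2 fold changes -5.17 ± 0.74, adjusted p = 0.0426). The levels of the genotypes lay further apart on D1 than on D7. cey-3 averaged 12.12 and 1.01 CPM against 0.877 and 1.65 CPM, puf-3 6.14 and 0.635 CPM against 0.604 and 2.08 CPM, and rpl-11.1 16.0 and 2.27 CPM against 2.54 and 5.77 CPM. In the other direction F10G7.9 averaged 6.4 and 37.3 CPM against 25.5 and 18 CPM, M02D8.3 2.04 and 11.8 CPM against 14.5 and 9.95 CPM, and F47G9.4 0.621 and 5.97 CPM against 5.13 and 5.72 CPM. In these 3 genes the D1 level of the double mutant was the low one.

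Among the 6 largest differences past the test were genes with few reads in at least 1 group and an abundant one, R03G8.6. sod-5, a copper/zinc superoxide dismutase gene, averaged 0.997 CPM on D1 and 0.993 CPM on D7 without daf-16, while in daf-2(rf) it measured 4.52, 1.35 and 0.0776 CPM on D1 and 315, 186 and 300 CPM on D7 (difference -7.10 ± 1.31, adjusted p = 0.0460). cdt-2, a gene for a ubiquitin ligase adaptor in the control of DNA replication, averaged 2.2 and 0.862 CPM against 0.138 and 3.83 CPM (difference -5.91 ± 1.25, adjusted p = 0.0498). C24A11.6 (9.19 ± 1.89), rpa-3 (6.01 ± 1.08) and eea-1, an early endosome gene (5.43 ± 1.02), had the largest differences above 0. For C24A11.6 the size is uncertain, as its counts were near the floor. It had 0, 2 and 0 reads on D1 and 63, 21 and 57 on D7 without daf-16. In daf-2(rf) it had 6, 72 and 6 reads on D1 and 5, 1 and 2 on D7. R03G8.6, the most abundant of the 6 largest, measured 73.7, 310 and 326 CPM on D1 and 1237, 591 and 1770 CPM on D7 without daf-16, and 842, 2481 and 1233 CPM on D1 and 263, 86.7 and 214.4 CPM on D7 in daf-2(rf) (difference 5.35 ± 0.97, adjusted p = 0.0460). Its 2 genotypes crossed without overlap at either age. itr-1, the inositol trisphosphate receptor gene that releases calcium for spermathecal contraction, averaged 38.5 and 122.03 CPM against 84.7 and 28.7 CPM (difference 3.22 ± 0.67, adjusted p = 0.0462).

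Among chaperone genes, hsp-16.2 and daf-21 passed this test and were not called with age. hsp-16.2 averaged 607 CPM on D1 and 182 CPM on D7 without daf-16, and 26.2 and 293 CPM in daf-2(rf) (difference -5.23 ± 0.95, adjusted p = 0.0460). daf-21, the HSP90 gene, averaged 3098 and 1819 CPM against 709 and 3730 CPM (difference -3.16 ± 0.66, adjusted p = 0.0469). Of 26 chaperone genes in this fit, 24 had a fitted difference below 0 with a median of -1.55, and DESeq2 passed 11 below and 0 above. Of the lists with a median below 0 on D7 without daf-16, some differed from daf-2(rf) in that direction and others did not. All 80 ribosomal protein genes had a fitted difference below 0 (median -2.79, 1 past the edgeR test and 60 past DESeq2's), with a median change of -0.08 in daf-2(rf) beside -2.85 here. All 13 germ line and oocyte genes were below 0 (median -2.69, 0 past the edgeR test and 6 past DESeq2's), and so were all 32 proteasome genes (median -1.61, 0 past the edgeR test and 11 past DESeq2's). How far these list differences rest on D1 replicate 1 of the double mutant was not tested. Without that library the edgeR test of the difference passed 0 genes. The median changes with age were then -1.59 for ribosomal proteins, -0.43 for the proteasome and -0.67 for chaperones. In daf-2(rf) these 3 lists had medians of -0.08, 0.59 and 1.38. Cuticle-type collagens had the lowest median here among lists with at least 5 members tested, and a median of -2.33 in daf-2(rf) too. Of 51 collagens in this fit, 30 had a difference below 0, with 0 past the edgeR test and 1 past DESeq2's. Intestine markers, with a median of -0.86 here, had 9 of 13 differences above 0 (median 2.11, 0 past the edgeR test, 3 above and 1 below past DESeq2's), and transthyretin-like genes had 12 above and 11 below (median 0.02). UDP-glycosyltransferases had 16 of 17 above 0 (median 2.71, 0 past the edgeR test and 4 past DESeq2's).

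**Figure D5:**
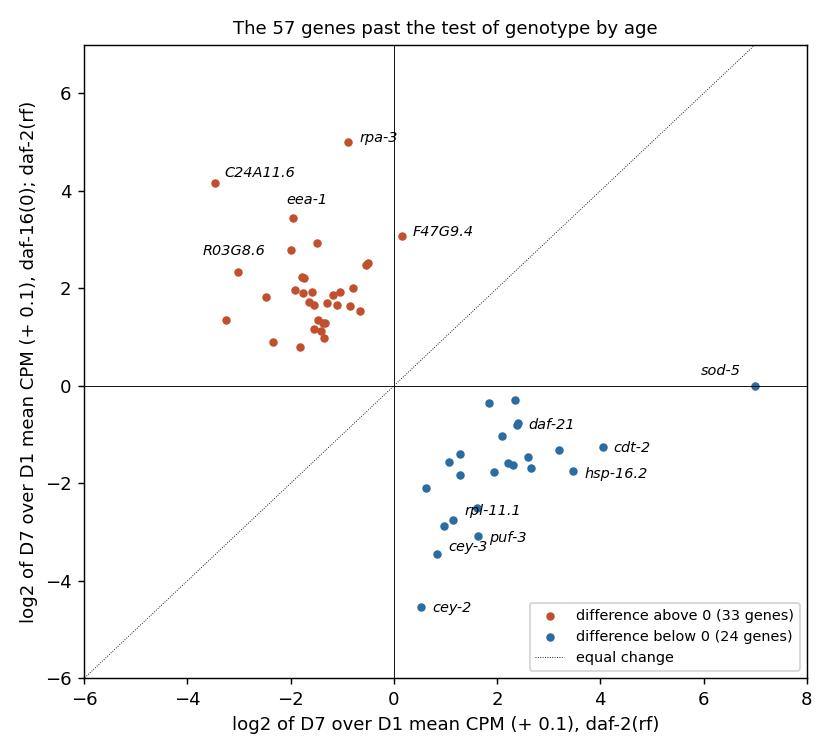
The 57 genes past the test of genotype by age, each plotted by its log2 ratio of D7 over D1 mean CPM (with 0.1 CPM added) in daf-2(rf) on the x axis and in daf-16(0); daf-2(rf) on the y axis, red where the difference is above 0 (33 genes), blue where it is below 0 (24 genes) and a dotted line for equal change. All genes but F47G9.4 lie in the quadrants where the means of the genotypes moved in opposite directions, however small the move.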

How the data were processed

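RNA-seq data of sorted PSG cells from 12 libraries, 3 per genotype and age, were used. Per the labels and the paper's methods, the authors aligned reads to WBcel235 with HISAT2 2.0.5, counted them per gene with featureCounts 1.5.0-p3 and deposited raw counts and FPKM values in separate tables. The scaling of the deposited FPKM is not described in the sources used here, and their values equal counts divided by gene length and by size factors of the DESeq2 type over all 12 libraries. The kit, SMARTer Ultra Low, amplifies full-length cDNA and does not mark strand, so reads of overlapping genes cannot be told apart. The column of gene length was not used in a test. Groups came from the sample titles.

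A gene was kept if every replicate of D1 or of D7 held over 10 of its reads. The test was edgeR's quasi-likelihood F test (version 4.0.16, R 4.3.3) after TMM scaling, with Benjamini-Hochberg adjustment over all kept genes and no covariate. Calls needed an adjusted p under 0.05 and a log2 fold change of 1 or more in either direction. Standard errors were back-calculated from the F statistic and are approximate. The interaction of genotype and age was fitted to all 12 libraries, with no fold threshold. Gene lists were matched by symbol, also through RefSeq names, and are described by counts and medians without a set test. DESeq2 1.42.0, limma 3.58.1 on log2(FPKM + 1), other scalings and filters, a replicate term and the omission of each library served as alternatives. The steps were tested on simulated data.

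The genes, lists and alternatives were chosen with earlier results of these data known. Genes were named when, in each direction, they ranked in the first 12 by size of change among calls at a mean of at least 10 CPM without overlap (filled up by p where fewer were called), among up to 4 called members of a list or its 2 most abundant members where none was called, among the top 5 by FPKM, among the 6 largest interactions, or were daf-16, daf-2, fos-1, dos-3 or hsf-1. All called genes are named as well. perm-2, perm-4, oma-1, pgl-1, hsp-16.2, hsp-16.41, hsp-70, daf-21, clec-190, col-140, rps-21, rpl-24.2 and itr-1 were chosen after their values were seen, as were the DESeq2 counts for lists and the DESeq2 fit without D1 replicate 1.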

Additional observations from a re-analysis of the deposited data

Results flagged for a closer look

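The change with age differed between the genotypes, by a test of the difference itself in edgeR, in 57 genes. Of the genes named in the report these include C24A11.6 (difference of the log2 fold changes 9.19), rpa-3 (6.01), eea-1 (5.43), R03G8.6 (5.35), M02D8.3 (3.05), F10G7.9 (3.01) and F47G9.4 (3.01), which changed more upward in daf-16(0); daf-2(rf) than in daf-2(rf). They also include sod-5 (-7.10), cdt-2 (-5.91), cey-2 (-5.17), puf-3 (-4.94), cey-3 (-4.41) and rpl-11.1 (-3.99), which changed more downward. The size for C24A11.6 is uncertain, as it had 0, 2 and 0 reads in the D1 libraries of the double mutant.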

How the results depend on the processing

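The 44 genes called with age kept their direction under every alternative in which they were tested. Their count was 1353 with DESeq2's Wald test (672 higher, 681 lower, 49.7% of calls higher instead of 34.1%), 1394 without a filter on low counts (53.9% higher), 939 with all 12 libraries in 1 fit, 78 with limma on log2(FPKM + 1) (60.3% higher) and 21 on log2(FPKM + 0.1), and 2 with more than 10 reads required in each library, both lower, where 13 of the 44 were tested. It ran from 0 to 635 with 1 library left out, and DESeq2 without D1 replicate 1 called 781. With a replicate block it was 67, of which 30 were among the 44. The replicate numbers are not known to pair the ages: same-numbered libraries correlated at -0.025, -0.246 and 0.243 after removing the age means. DESeq2 size factors (42), upper-quartile factors (49), robust dispersion (45), the 20 most abundant genes left out (44) and a log2 fold change of 2 or more either way (44) gave like counts.

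Genes past the test of genotype by age numbered 842 with DESeq2, 703 without a filter, 17 with a replicate block, and 0 to 130 with 1 library left out. Directions of genes that were not called turned in 4 cases: hsf-1 was at 0.037 with more than 10 reads in each library, and with 1 library left out cyp-34A8 ranged from -0.33 to 0.34, daf-16 from -0.77 to 0.35 and daf-2 from -0.28 to 0.36. The median of DNA replication genes (-0.03) crossed 0 under another scaling, and with single libraries left out the medians of 14 lists did: spermatheca and uterus, hypodermis, neurons, nucleolus, mitochondrial unfolded-protein response, endoplasmic reticulum folding, C-type lectins, lysozymes, autophagy, innexins, DNA replication, genes known to fall with DAF-16, Notch, and apoptosis. The causes were not tested. Depth limits genes near the floor of 3 reads, which stands for 0.123 to 0.896 CPM.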
